A study of Mus musculus with 6 samples.

Results

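The collagens, the elastic fibre proteins and the small proteoglycans that bind them were examined in alveolar type II cell isolates of Stat3Δ/Δ and control mice. Members were taken by gene symbol alone: all genes named Col with a chain number, the numbered fibulins (Fbln) and fibrillins (Fbn), and Eln, Sparc, Dcn, Lum, Bgn, Fmod and Mgp. Of 45037 probe sets tested, 110 named a single gene of this kind, and they represented 54 of 18193 genes. Of these 54 genes, 18 had 1 probe set and 36 had several, and each gene was represented by its probe set of highest mean signal over the 6 arrays, here called its brightest. No member was left out by a filter on signal.

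Stat3Δ/Δ mice carried SP-C-rtTA, (tetO)7CMV-Cre and Stat3flx/flx. In these mice the surfactant protein C promoter drives the doxycycline-dependent activator in respiratory epithelial cells, where Cre then removes an exon of Stat3. The source names give the controls as double transgenic for SP-C-rtTA/(tetO)7CMV-Cre, whereas the study's methods describe littermates with either transgene and Stat3flx/flx; the deposited description names the triple-transgenic line for both groups. Dams of both groups received doxycycline in the food through gestation and early postnatal life. Mice were 8 weeks old and matched for sex, cells were released with collagenase and enriched by differential plating, and each RNA came from a pool of cells of 3 mice. There were 3 pools and 3 MOE430 arrays in each group, and the values below are log2 of the deposited signal plus a pseudocount of 70, quantile normalized, so that the change of dim genes is understated.

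Collagens are trimers wound from 3 chains. The fibril-forming types I, III and V give lung connective tissue its tensile strength, type IV forms the sheet of the basement membrane on which epithelium and endothelium rest, and type VI forms beaded filaments that connect these structures. Elastin, laid down on fibrillin microfibrils with the help of fibulins, lets the alveolar wall recoil, and the small leucine-rich proteoglycans decorin, biglycan, lumican and fibromodulin sit on collagen fibrils and regulate their width. In the lung the fibril-forming collagens, decorin and elastin are known mainly as products of fibroblasts and smooth muscle cells, whereas type IV collagen is made by endothelial and epithelial cells as well.

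The targeted gene and the isolates were checked first. Of 4 probe sets for Stat3, 2 lay lower in all Stat3Δ/Δ pools than in all control pools, with log2 fold changes of -0.80 and -0.71 (adjusted p = 0.502 and 0.532, limma), and the other two gave -0.046 and 0.60. Their position relative to the exon that Cre removes was not analysed here. Alveolar type II markers were strong in both groups, and of 9 measured the ATP-binding transporter Abca3 was the 1 called lower (-0.73), with a list median of -0.026. Median array signals were 282.8 to 381.2. RNA integrity was read from the log2 ratio of 3' to 5' controls, which was 0.34 to 0.42 in Stat3Δ/Δ pools and 0.47 to 0.81 in control pools for Actb, and -0.49 to -0.30 and -0.24 to 0.27 for Gapdh; its part in the results below was not tested. The sample titles hold numbers of unstated meaning after the group name, and the first of them is called the title number here. Stat3Δ/Δ pools 1 and 2 share this title number with control pool 3, but not the number after it. Control pools 1 and 2 have another, and Stat3Δ/Δ pool 3 has one of its own. Main results are therefore also given within the 3 arrays of the shared number. A fit with the title number as a block takes its differences from the same 3 arrays, with control pool 3 as the only control.

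The mRNAs of the fibrillar collagens Col1a1, Col1a2, Col3a1 and Col5a2, of decorin and of matrix Gla protein were lower in Stat3Δ/Δ isolates, with log2 fold changes of -2.33 to -1.37 at unadjusted p values. With the title number as a block these 6 genes gave -1.68 to -0.52, and none kept its call. Their groups did not overlap, so the sign of these values was fixed in advance. The basement membrane collagen Col4a1 (-0.099), biglycan (-0.044) and Sparc (-0.27) gave smaller differences at their brightest probe sets that did not pass the test. Other probe sets of biglycan gave -0.50 and -0.69, and those of Sparc -0.19 and -0.88, none of them called. A gene was called lower or higher at an unadjusted p of at most 0.05 in limma and a fold of at least 1.5, the thresholds the study used for genes seen in several probe sets. By this rule 10 of the 54 genes (18.5%) were called lower, against 5.54% of all 18193 genes, and 0 were called higher, against 2.15%. All 10 genes with an unadjusted p of at most 0.05 were these (18.5%, against 7.81% of all genes). With a false discovery rate of at most 10% as a further condition limma called 0 members, against 0.0055% of all genes, and the adjusted p of the 10 genes ran from 0.452 to 0.565. Below 0 lay 38 of the 54 genes (70.4%, against 59.3% of all genes), and the median log2 fold change was -0.26 for the members and -0.085 for all genes. After normalization every Stat3Δ/Δ pool lay below every control pool in 13 genes (24.1%, against 10.2% of all genes). In 1 gene, Fbn2, every Stat3Δ/Δ pool lay above (1.85%, against 4.23%), though not at its other probe set.

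**Figure D1:**
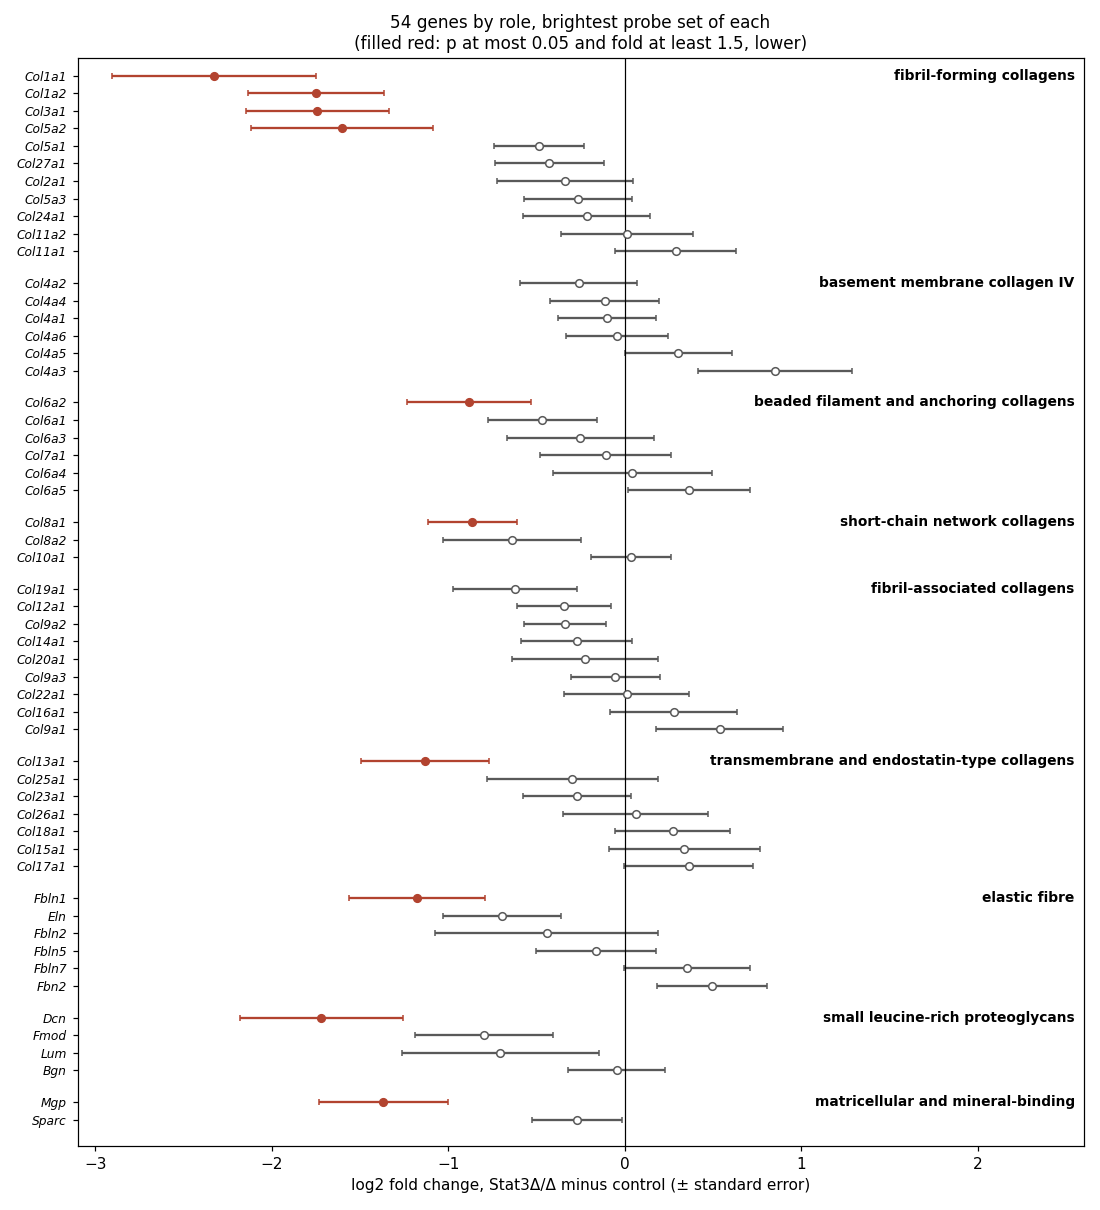
Log2 fold change of each of the 54 genes, Stat3Δ/Δ minus control, at its brightest probe set, grouped by role; the horizontal axis is in log2 units and bars are ± standard error from limma over 3 pools per group. The 10 filled red points were called lower, from Col1a1 at -2.33 to Col8a1 at -0.86, 4 of them among the fibril-forming collagens, and no type IV collagen gene was called.

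Among the 11 fibril-forming collagen genes, 9 lay below 0 and 4 were called lower, namely Col1a1, Col1a2, Col3a1 and Col5a2, with a median of -0.43 over the 11. Col1a1 and Col1a2 encode the chains of type I collagen, the main fibre of adult connective tissue. Log2 signals of Col1a1 were 7.55, 8.95 and 7.00 in Stat3Δ/Δ pools 1 to 3 and 10.06, 11.07 and 9.36 in control pools 1 to 3. The highest Stat3Δ/Δ pool lay below the lowest control pool, although the pools within each group were widely spread. The log2 fold change of Col1a1 was -2.33 (standard error 0.58), a 5.02-fold lower signal (unadjusted p = 0.00363, adjusted p = 0.467, limma). Its second probe set gave -1.31 and was also called lower, but there control pool 3 (8.43) lay below Stat3Δ/Δ pool 2 (8.54).

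Col1a2 had log2 signals of 9.91, 10.84 and 10.15 in Stat3Δ/Δ pools and 12.11, 12.64 and 11.42 in control pools, again without overlap. Its log2 fold change was -1.75 (standard error 0.39), 3.36-fold lower (unadjusted p = 0.00183, adjusted p = 0.452, limma). Of its other probe sets, one was called lower at -0.94 and the dimmest gave 0.089. Col3a1 encodes the chain of type III collagen, which forms the fine reticular fibres of compliant organs and is found in fibrils together with type I. It had 10.72, 12.24 and 11.18 in Stat3Δ/Δ pools and 12.80, 13.40 and 13.16 in control pools. The 3 control pools of Col3a1 lay closer together (SD 0.30) than the Stat3Δ/Δ pools (SD 0.78), and the groups did not overlap. Its log2 fold change was -1.74 (standard error 0.41), 3.34-fold lower (unadjusted p = 0.00253, adjusted p = 0.456, limma), and its dimmer probe set was called lower as well, at -0.86.

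Col5a2 encodes a chain of type V collagen, a minor partner that nucleates type I fibrils. Its log2 signals were 6.88, 8.72 and 8.67 in Stat3Δ/Δ pools and 9.84, 10.06 and 9.17 in control pools, with Stat3Δ/Δ pool 1 far below the rest. The log2 fold change was -1.60 (standard error 0.52), 3.03-fold lower (unadjusted p = 0.0141, adjusted p = 0.515, limma), and the second probe set gave -0.78 without passing the rule. Without Stat3Δ/Δ pool 1 the log2 fold change of Col5a2 was -1.01, still called. Col5a1, the other main chain of type V, had 9.002, 8.59 and 8.62 in Stat3Δ/Δ pools against 9.39, 9.05 and 9.22 in control pools. These groups did not overlap either after normalization, but the difference of -0.49 was not called (95% interval -1.07 to 0.098). In deposited signals Stat3Δ/Δ pool 1 (495.2) lay above control pool 2 (429.0). Col27a1, Col2a1, Col5a3 and Col24a1 gave -0.43 to -0.22, Col11a2 gave 0.014 and Col11a1 gave 0.29, and none of them was called.

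The promoters of Col1a2 and Col3a1 are shown because these genes had the smallest p values of all members. Both are the 250 bases before the transcription start in RefSeq (build GRCm38.p6), printed 5′ to 3′ on the plus strand, with matches to common promoter elements in capitals. The GGGCGG box bound by Sp1-type factors lies at 205 to 200 and at 188 to 183 bases before the start of Col1a2, and a CCAAT box at 109 to 105; Col3a1 has a TATAAA match at 117 to 112.
Col1a2, chr6:4505368-4505617: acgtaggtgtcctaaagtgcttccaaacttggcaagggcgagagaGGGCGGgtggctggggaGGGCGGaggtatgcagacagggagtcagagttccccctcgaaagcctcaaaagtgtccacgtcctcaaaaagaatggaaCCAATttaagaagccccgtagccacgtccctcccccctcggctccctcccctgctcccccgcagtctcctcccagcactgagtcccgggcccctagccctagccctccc
Col3a1, chr1:45311288-45311537: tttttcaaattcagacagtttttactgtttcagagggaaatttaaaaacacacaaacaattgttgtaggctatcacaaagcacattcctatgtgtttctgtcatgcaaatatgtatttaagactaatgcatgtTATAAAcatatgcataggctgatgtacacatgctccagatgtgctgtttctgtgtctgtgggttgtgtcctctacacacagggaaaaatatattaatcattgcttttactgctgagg
Of the member genes, 40 had such a window, and both strands were searched for 4 elements in each. TTCNNNGAA, the spaced palindrome that STAT proteins bind, was found in 1 of the 40 (2.5%, Col6a5), against 7.43% of 14369 array genes with a window, and in neither window printed here. GGGCGG was found in 24 of the 40 (60.0%, against 53.5%), CCAAT in 15 (37.5%, against 39.4%) and TATAAA in 5 (12.5%, against 10.5%). These are letter matches in a short window and say nothing of binding.

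The 6 genes of type IV collagen, the network of the basement membrane, gave none that was called, with a median of -0.071. Col4a1 had log2 signals of 14.57, 14.43 and 14.44 in Stat3Δ/Δ pools and 14.50, 14.23 and 15.01 in control pools, so that the Stat3Δ/Δ pools lay inside the control range. The difference was -0.099 (standard error 0.28, 95% interval -0.74 to 0.54), and its second probe set gave 0.0057. Its partner chain Col4a2 had 12.92, 13.32 and 13.91 in Stat3Δ/Δ pools and 13.50, 13.42 and 14.02 in control pools, a difference of -0.26 (95% interval -1.02 to 0.50). Without Stat3Δ/Δ pool 1 the difference of Col4a2 was -0.029. In the fit with the title number as a block Col4a2 was called lower at -0.90, near the -1.04 of Col1a2 in that fit, so the difference in size between these genes depends on the block. In RefSeq the transcripts of Col4a1 and Col4a2 start head to head and overlap by 22 bases; Col4a1 starts on the minus strand at the last of these bases and Col4a2 on the plus strand at the first, as printed on the plus strand with no motif marked.
Col4a1 and Col4a2 start sites, chr8:11312805-11312826: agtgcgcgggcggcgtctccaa
Col4a3, Col4a4 and Col4a5 encode the chains of the mature alveolar and glomerular network. Col4a3 went the other way from the fibrillar genes, with 10.64, 8.98 and 9.26 in Stat3Δ/Δ pools and 8.58, 9.004 and 8.74 in control pools. Stat3Δ/Δ pool 2 overlapped the controls, and the difference of 0.85 (standard error 0.43) was not called (95% interval -0.14 to 1.85). Its second probe set, with 9.79, 9.14 and 9.28 against 8.12, 8.61 and 8.85, separated the groups and was called higher at 0.88 (unadjusted p = 0.02, adjusted p = 0.526, limma). The value at the brightest probe set rested on Stat3Δ/Δ pool 1, without which it was 0.35 and not called; without Stat3Δ/Δ pool 2 it was called higher at 1.18, as was the mean of its probe sets at 0.86. Col4a4, Col4a5 and Col4a6 gave -0.11, 0.31 and -0.043.

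Of the 6 genes of beaded filament and anchoring collagens, Col6a2, a chain of type VI collagen, was the 1 called lower. Its log2 signals were 12.13, 12.92 and 13.29 in Stat3Δ/Δ pools and 13.87, 13.31 and 13.79 in control pools, and Stat3Δ/Δ pool 3 came close to control pool 2. Its log2 fold change of -0.88 (standard error 0.35, unadjusted p = 0.036, adjusted p = 0.565, limma) lost its call when any of 4 pools was left out, namely the Stat3Δ/Δ pools 1 (-0.56) and 2 (-0.96) and the control pools 1 (-0.76) and 3 (-0.82). Col6a1, which joins Col6a2 in the same trimer, had 13.91, 14.22 and 14.62 against 14.92, 14.28 and 14.95 (difference -0.47, 95% interval -1.18 to 0.24). Col6a3, the long chain of that trimer, had 8.62, 9.90 and 9.57 against 9.70, 10.13 and 9.02, a difference of -0.25 whose sign turned without Stat3Δ/Δ pool 1 (0.12). Col7a1, Col6a4 and Col6a5 gave -0.11, 0.043 and 0.36.

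Col8a1 encodes a short-chain collagen of vessel walls and subendothelial matrix. It had 7.68, 8.14 and 8.05 in Stat3Δ/Δ pools and 8.68, 8.92 and 8.88 in control pools, a narrow spread in both groups with a clear gap. Its log2 fold change was -0.86 (standard error 0.25, unadjusted p = 0.00859, adjusted p = 0.495, limma), but its 2 other probe sets both gave -0.16, and the mean of its probe sets was -0.39 and not called. Col8a2 gave -0.64 and Col10a1, a collagen of growth plate cartilage, 0.035. Col13a1, a transmembrane collagen of cell adhesion sites, had 7.81, 6.66 and 6.85 against 8.39, 8.47 and 7.85. Its Stat3Δ/Δ pool 1 lay just under control pool 3 after normalization, but above it in the deposited signals (180.9 against 169.7). The log2 fold change of -1.13 (standard error 0.36, unadjusted p = 0.0138, adjusted p = 0.515, limma) lost its call without Stat3Δ/Δ pool 2 (-0.90). The other 6 transmembrane and endostatin-type genes ran from -0.30 (Col25a1) to 0.36 (Col17a1), and none was called.

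The 9 fibril-associated collagen genes, which decorate the surface of fibrils or join them to other matrix, gave 0 called at the brightest probe set and a median of -0.22. After normalization the brightest probe sets of Col19a1 (-0.62) and Col9a2 (-0.34) separated the groups without being called, and Col9a1 gave 0.54. In deposited signals that probe set of Col19a1 overlapped, with Stat3Δ/Δ pool 1 (152.1) above control pool 1 (124.9). Another probe set of Col19a1 separated the groups the other way (0.38, not called), and its remaining one gave -0.69. All signals of Col9a2 lay below the pseudocount, at 14.9 to 20.3 in Stat3Δ/Δ pools and 26.3 to 48.7 in control pools. Single dimmer probe sets passed the rule in this group: one of Col14a1 (-0.97) and one of Col22a1 (-0.70) were called lower, and one of Col9a3 (0.84) was called higher, while the brightest probe sets of these genes gave -0.27, 0.011 and -0.052.

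Of the 6 elastic fibre genes Fbln1 was the 1 called lower. Fibulin-1 is a calcium-binding glycoprotein of elastic fibres and basement membranes. Its log2 signals were 9.09, 9.64 and 9.44 in Stat3Δ/Δ pools and 10.88, 11.08 and 9.74 in control pools, and control pool 3 lay much nearer to the Stat3Δ/Δ pools than to the other two controls. The log2 fold change was -1.18 (standard error 0.39, unadjusted p = 0.0155, adjusted p = 0.516, limma), and the call was lost without Stat3Δ/Δ pool 1 (-1.04) and without the control pools 1 (-1.003) or 2 (-0.91). A second probe set of Fbln1 was called lower at -0.80 and its remaining one gave 0.088. Elastin itself, Eln, had 9.76, 10.43 and 9.86 in Stat3Δ/Δ pools and 10.15, 10.92 and 11.06 in control pools. The groups overlapped through Stat3Δ/Δ pool 2 and control pool 1, and the difference of -0.69 was not called (standard error 0.33, 95% interval -1.46 to 0.076), though it was without Stat3Δ/Δ pool 2 (-0.90) or control pool 1 (-0.96). Fbln5, which tethers elastin to cells, had 9.78, 9.91 and 10.72 against 10.19, 10.71 and 10.01, a difference of -0.16 whose sign turned without Stat3Δ/Δ pool 1 (0.013) or control pool 2 (0.040). Fbln2 had the widest control spread of the elastic fibre genes, with 9.68, 9.90 and 7.39 against 8.20, 8.39 and 9.05, a difference of -0.44. Fbn2, a fibrillin of developing microfibrils, had 9.76, 9.83 and 10.14 in Stat3Δ/Δ pools and 9.72, 9.68 and 8.84 in control pools. The groups did not overlap but nearly touched, and the difference of 0.50 was not called. With the title number as a block the difference of Fbn2 was 0.95. Its other probe set gave -0.036 with overlapping groups, 8.85, 9.30 and 8.46 against 9.58, 8.91 and 8.22. Within the shared title number that probe set gave 0.85. Fbln7 gave 0.35.

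All 4 small leucine-rich proteoglycan genes lay below 0, with a median of -0.75, and Dcn was the 1 called lower. Within the shared title number their median was -0.051, and Lum (0.50) and Fmod (0.038) lay above 0. Decorin binds collagen fibrils and holds TGF-beta in the matrix. Dcn had log2 signals of 10.90, 11.46 and 10.59 in Stat3Δ/Δ pools and 12.96, 13.45 and 11.70 in control pools. The groups did not overlap, but control pool 3 lay nearer to Stat3Δ/Δ pool 2 than to the other controls. The log2 fold change was -1.72 (standard error 0.46), 3.29-fold lower (unadjusted p = 0.00566, adjusted p = 0.476, limma), whereas a second, dim probe set gave 0.0029 and the mean of both was -0.86 and not called. Lum, which encodes lumican, had 7.11, 8.21 and 7.83 against 8.74, 9.35 and 7.16. Control pool 3 was among the lowest, and the difference of -0.70 was not called (95% interval -1.98 to 0.57); without control pool 3 it was called, at -1.32, and without control pool 2 it was -0.24. Fmod, fibromodulin, gave -0.80 at its brightest probe set and -1.32 to 0.12 over its other 5, of which the lowest was called; the brightest was called without Stat3Δ/Δ pool 2 (-1.06) or control pool 3 (-1.16). Bgn, biglycan, had 10.55, 11.23 and 10.75 against 10.73, 10.90 and 11.03, a difference of -0.044 (95% interval -0.67 to 0.58). Its sign turned without Stat3Δ/Δ pool 1 (0.10), Stat3Δ/Δ pool 3 (0.0026) or control pool 3 (0.027). The other probe sets of Bgn gave larger differences of -0.50 and -0.69, neither of them called.

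Mgp, matrix Gla protein, keeps cartilage and vessel walls from calcifying. It had 11.27, 12.49 and 11.78 in Stat3Δ/Δ pools and 13.12, 13.63 and 12.90 in control pools, without overlap. Its log2 fold change was -1.37 (standard error 0.37), 2.58-fold lower (unadjusted p = 0.00551, adjusted p = 0.472, limma). Sparc, a collagen-binding glycoprotein that many cell types secrete, had 14.37, 14.76 and 14.88 against 15.05, 14.84 and 14.92. The difference of -0.27 was not called (95% interval -0.86 to 0.31), and its other probe sets gave -0.19 and -0.88.

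**Figure D2:**
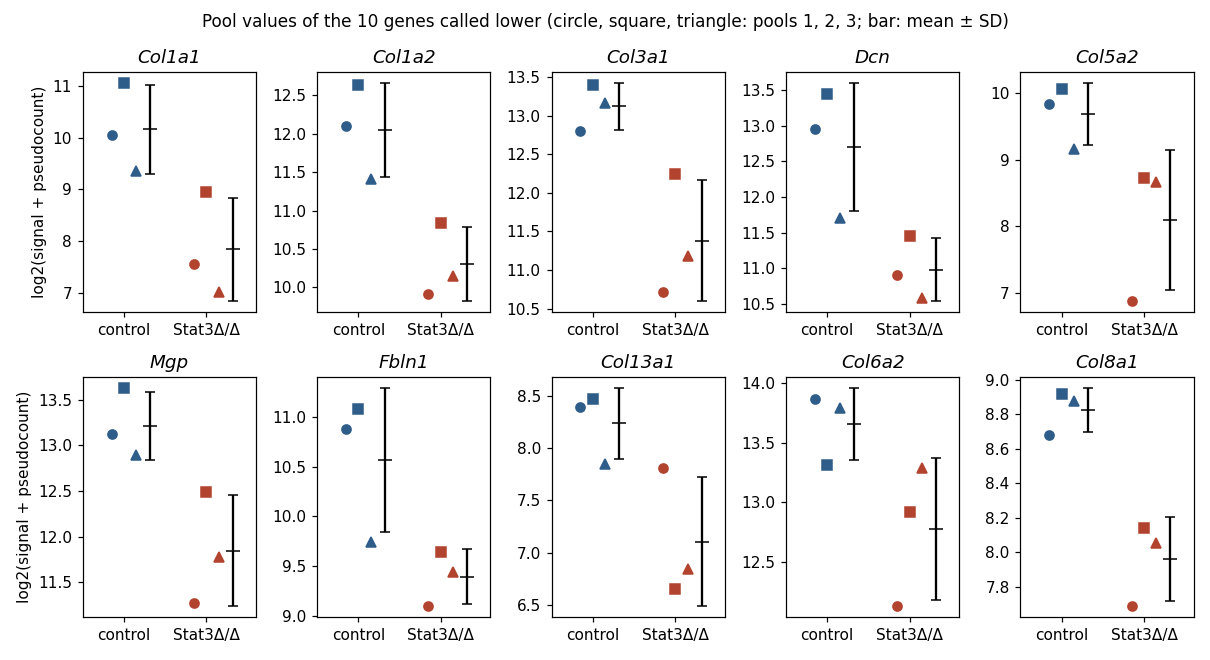
Log2(signal + pseudocount) of the brightest probe set in each pool for the 10 genes called lower; circles, squares and triangles are pools 1, 2 and 3, blue is control, red is Stat3Δ/Δ, and bars are mean ± SD of 3 pools, with a separate vertical scale for each gene. In these normalized values the groups do not overlap in any of the 10, and control pool 2 is the highest control in 9 of them.

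The same pools were often the extremes of their group among the genes called lower. Of the 10 genes, Stat3Δ/Δ pool 1 was lowest of its group in 7 and Stat3Δ/Δ pool 2 highest in 8, control pool 2 was highest of its group in 9 and control pool 3 lowest in 7. In the normalized values the groups did not overlap in any of the 10 genes, so a difference below 0 in any part of the arrays was fixed in advance. Only the sizes are given for such parts. Between the 3 arrays of the shared title number, Stat3Δ/Δ pools 1 and 2 less control pool 3, they ran from -1.68 (Col3a1) to -0.37 (Fbln1). Col1a1 gave -1.11 there, Col1a2 -1.04, Dcn -0.52, Col5a2 -1.37, Mgp -1.02, Col13a1 -0.62, Col6a2 -1.27 and Col8a1 -0.96. The remaining arrays, Stat3Δ/Δ pool 3 against control pools 1 and 2, carry other numbers. They gave -3.56 for Col1a1, -2.62 for Dcn and -0.30 for Col6a2. The median of the 54 genes was -0.14 within the shared number, against -0.049 for all genes. The fit blocked on the title number takes its differences from the same 3 arrays, so it is not a separate comparison. With the title number as a fixed block, 3 genes were called lower (against 3.26% of all genes), of which Col6a2 and Col8a1 were among the 10 and Col4a2 (-0.90) was not. In that fit Fbn2, Col11a1 and Fbln2, 3 genes, were called higher (against 2.75%), and Lum (0.50), Col6a3 (0.24) and Fmod (0.038) changed sign.

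**Figure D3:**
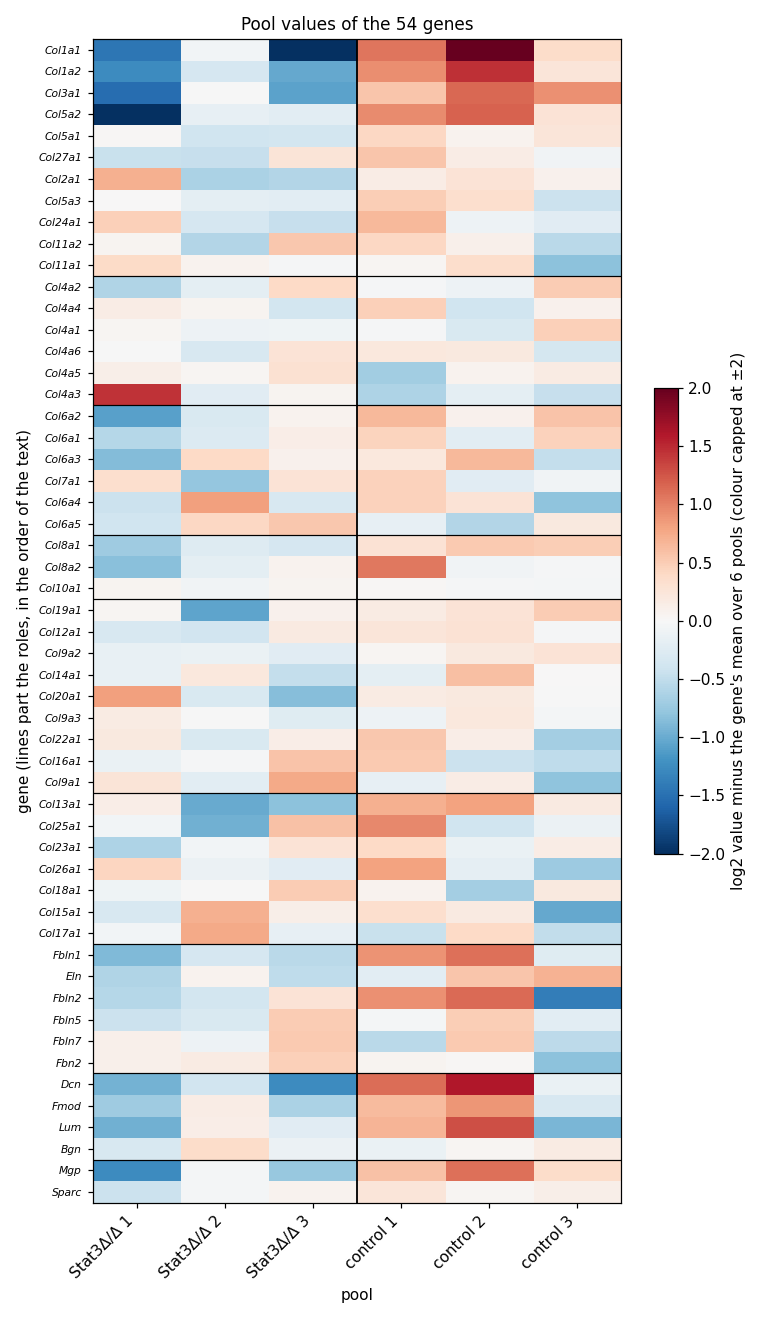
Deviation of each pool from the gene's mean over 6 pools, in log2 units with the colour capped at ±2, for the 54 genes in the order of their roles; columns are the 3 Stat3Δ/Δ and 3 control pools. The darkest blue cells are Col5a2 in Stat3Δ/Δ pool 1 and Col1a1 in Stat3Δ/Δ pool 3, and Fbln2 in control pool 3 is a low cell on the control side.

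Probe sets of one gene did not always give the same direction. Over the 110 probe sets, 17 were called lower (15.5%, against 4.22% of all probe sets) and 2 higher (1.82%, against 4.14%), and 0 passed the false discovery rate in limma (against 0.00222%). In 18 probe sets every Stat3Δ/Δ pool lay below every control pool (16.4%, against 7.66% of all probe sets), and in 4 every Stat3Δ/Δ pool lay above (3.64%, against 5.99%). The count lower was 11 without Stat3Δ/Δ pool 1 (2.97% of all probe sets in that fit). The 17 belonged to 13 genes, of which Col1a1, Col1a2, Col3a1 and Fbln1 each had 2, and 7 of the 17 were not the brightest of their gene. Of the 36 genes with several probe sets, 14 had all of them below 0, 5 had all above 0 and 17 had some on each side. Among the 57 probe sets above the median signal of the array, 11 were called lower and 1 higher, with a median of -0.27. A fit of only the probe sets above that median gave the same 2 counts, against 4.83% and 5.72% of all probe sets in it. Among the 53 at or below the median signal, 6 were called lower and 1 higher, with a median of -0.052. No share over all probe sets was computed for these dim ones, so the bright and dim members cannot be compared.

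**Figure D4:**
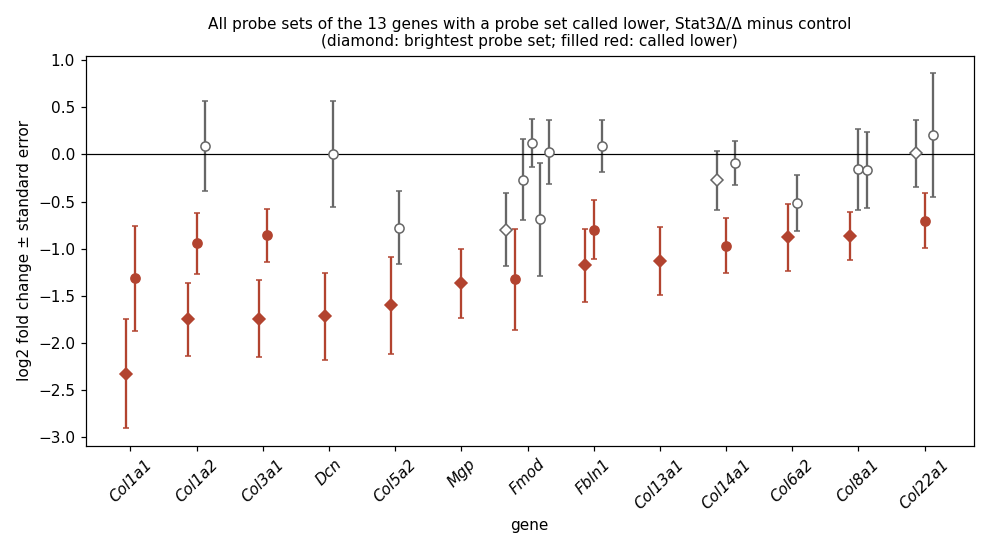
Log2 fold change ± standard error of every probe set of the 13 genes with at least 1 probe set called lower; diamonds are the brightest probe set of each gene, circles the others, and filled red marks those called lower. For Col1a1, Col1a2, Col3a1 and Fbln1 2 probe sets are filled, while other probe sets of Col1a2, Dcn, Fbln1 and Col8a1 lie near 0.

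Genes that act on collagen and elastic fibres were counted in lists by function, beside which the shares over all genes are 5.54% called lower, 2.15% called higher and 59.3% below 0. Of 25 measured genes of collagen synthesis and processing, 18 lay below 0, 3 were called lower and 1 higher, with a median of -0.18 (0.047 within the shared title number). Loxl1, a lysyl oxidase that cross-links elastin, had 7.60, 9.40 and 9.46 in Stat3Δ/Δ pools and 9.72, 10.45 and 10.33 in control pools, a log2 fold change of -1.35. Pcolce, which speeds the removal of the C-terminal propeptide of fibrillar procollagens, gave -0.86, and Tll1, a protease of that step, gave -0.81. Colgalt2, a galactosyltransferase that modifies collagen hydroxylysine, was called higher at 0.89. Of 11 genes of microfibrils and elastic fibre assembly, 9 lay below 0 and 2 were called lower, the microfibril protein Mfap5 (-1.49, and -0.15 within the shared number) and Ltbp1, which binds latent TGF-beta to the matrix (-1.16), with a list median of -0.41 (-0.079 within the shared number). Of 20 other proteoglycan and matricellular genes, 14 lay below 0 and 3 were called lower, the leucine-rich repeat proteins Chad (-1.54), Prelp (-0.78) and Omd (-1.05, but 0.065 within the shared number), with a median of -0.18 (0.072 within it).

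Of 11 genes of collagen breakdown, proteases and their inhibitors, 4 were below 0 (Timp1, Mmp13, Timp3 and Pepd, from -0.44 to -0.22), 0 were called lower and 2 higher, with a median of 0.13. Ctsk, which encodes the collagen-degrading protease cathepsin K, had 12.22, 12.18 and 12.05 in Stat3Δ/Δ pools and 11.24, 11.52 and 10.33 in control pools, a log2 fold change of 1.12, and the neutrophil collagenase Mmp8 gave 0.76. Both proteases are also products of leukocytes. Of 8 collagen receptors 5 lay below 0, none was called lower, and the integrin subunit Itgb1 was called higher at 0.67. Of 12 genes of TGF-beta signalling, a main inducer of fibrillar collagen transcription, 6 lay below 0 and 1 was called lower, the matricellular target Ccn2 (-0.77), with a median of -0.044.

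Markers of other cells that the isolates could hold were measured beside these genes. The shares over all genes are again 5.54% called lower, 2.15% called higher and 59.3% below 0. Among 12 fibroblast markers 7 lay below 0 and 1 was called lower, Cd34 (-0.83), which endothelial progenitors also express. The median was -0.21, and 0.074 within the shared title number. Some of these markers were dim, such as Twist1 (log2 signals of 6.36 to 7.99) and Fgf10 (6.49 to 8.61), so that their change is understated. The summed deposited signal of the fibroblast list was 5926, 9002 and 7222 in Stat3Δ/Δ pools and 6659, 16637 and 8151 in control pools, so that the groups overlapped. The high sum of control pool 2 came with a single marker, Thy1, whose log2 signal was 12.95 there, 9.71 and 11.16 in the other control pools and 10.67, 10.47 and 10.86 in Stat3Δ/Δ pools. Of 7 smooth muscle markers 0 were called, with a median of -0.16 and sums of 4538 to 7557 against 5219 to 8746, and of 5 pericyte markers 0 were called, with a median of 0.0097. All 5 mesothelial markers lay below 0 and 3 were called lower, Upk3b (-1.96), Lrrn4 (-1.54) and Msln (-0.91). Their summed signal was 2751, 4898 and 5637 in Stat3Δ/Δ pools and 11246, 9062 and 8253 in control pools, without overlap and lowest in Stat3Δ/Δ pool 1. Of 6 ciliated cell markers 4 were called lower, Ccdc39 (-0.51) did not pass and Dnah5 (0.36) lay above 0, with a median of -1.01 and sums of 6189 to 7723 against 10805 to 17683.

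Endothelial markers gave 1 called lower of 10, Vwf (-0.74), with a median of -0.31 and sums of 18731 to 24460 against 24214 to 30370. Of 6 cartilage markers 1 was called lower, Hapln1 (-0.74), and the median was -0.024. Alveolar macrophage markers lay above 0 in 7 of 7, with Marco (0.75) and Cd68 (0.81) called higher, a median of 0.54 and sums of 102306 to 134986 against 75402 to 91936. Chil3 (0.54, not called) was the brightest of them, at log2 signals of 15.52 to 16.43, and weighs most in these sums. Siglecf (0.045) and Adgre1 (0.24) gave smaller differences with overlapping groups. Type I cell markers gave 0 called of 5, with a median of -0.14. The lowest deposited signal of each array was 0.3 to 1.2, so no marker could lie at 0, and detection of the markers was not assessed. The part of these cells in the lower collagen and proteoglycan signals was not tested, and in pooled isolates fewer cells of a type and less RNA per cell cannot be told apart.

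**Figure D5:**
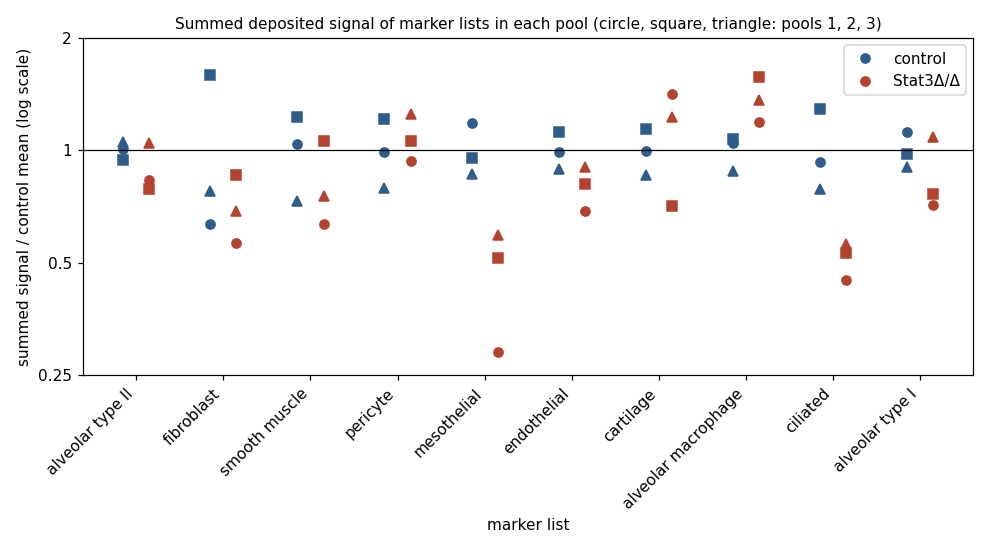
Summed deposited signal of each marker list in each pool, divided by the mean of the 3 control pools, on a log axis; circles, squares and triangles are pools 1, 2 and 3, blue is control and red is Stat3Δ/Δ. Mesothelial and ciliated sums are lower and macrophage sums higher in all Stat3Δ/Δ pools, while fibroblast and smooth muscle sums overlap between the groups.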

How the data were processed

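Signal intensities were made by the authors with Affymetrix Microarray Suite 5.0 and deposited as 1 value per probe set, with arrays scaled to a common 2% trimmed mean of 1500. Neither detection calls nor the study's RMA values were used here. After 64 control probe sets were left out of 45101, signals were raised by a pseudocount of 70, their 20th percentile, and log2 values were quantile normalized. Groups of 3 pools were compared with limma 3.58.1 (R 4.3.3), with Benjamini-Hochberg adjustment over 45037 probe sets, and the fit was tested on simulated data. Arrays of 3 per group limit the precision. Gene names came from the platform annotation; 34945 probe sets name 1 gene, 932 several and 9160 none.

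Members, lists and tests were chosen with earlier results of these data known. Pool values are given for a fixed set of genes by role and up to 12 further genes of smallest p, and up to 3 genes of each other list. Fbln2, the single probe sets of Col9a3, Col14a1 and Col22a1, the extremes of each role and further called genes of a list were named after their values were seen. Alternatives changed the pseudocount, normalization, signal filter, test, variance model, blocks, probe set rule and pools, 1 at a time. Promoter windows came from RefSeq (GRCm38.p6). Python 3.11.15, matplotlib 3.10.9, numpy 2.4.6 and pandas 2.3.3 served for tables and plots. Pools of separate mice are replicates.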

Additional observations from a re-analysis of the deposited data

How the results depend on the processing

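With 3 pools against 3, no member passed a false discovery rate of 10% in limma under the alternatives fitted over probe sets, so single genes rest on unadjusted p values, and the signals of the dimmest probe sets depend on the pseudocount. Of 110 probe sets, 17 were called lower and 2 higher (4.22% and 4.14% of all probe sets); with the pseudocount at the median signal these were 11 and 0 (1.81% and 2.24%), with only probe sets above the median signal 11 and 1 (4.83% and 5.72%), by the methods' t-test 10 and 2 (2.70% and 2.22%), and blocked on the shared title number 6 and 5 (3.07% and 3.09%). Over the 6 fits with 1 pool left out they ran from 11 to 22 lower and from 1 to 4 higher (2.97% to 5.28% and 2.75% to 6.5% of all probe sets). The median over member probe sets ran from -0.33 to -0.15. Of 54 genes, 10 were called lower and 0 higher (5.54% and 2.15% of all genes). Blocked on that number these were 3 and 3 (3.26% and 2.75%), and with the mean of all probe sets of a gene 8 and 1 (5.41% and 2.65%). With 1 pool left out they were 9 to 12 and 0 to 1 (3.64% to 7.34% and 1.66% to 2.69%), with medians from -0.33 to -0.17. By the methods' t-test Fbln1, Col5a2 and Col6a2 lost their calls. With the pseudocount at the median signal Col8a1 and Col13a1 both gave -0.48 and lost theirs, and both were too dim for the signal filter. With no normalization between arrays 35 of 54 genes lay below 0 and all genes had a median of -0.039, and with arrays centred on their medians 40 did and all genes had -0.18.

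Signs that turned were those of Col6a3 (0.24), Lum (0.50) and Fmod (0.038) in the fit blocked on the title number, Col27a1 (0.18) with the mean of its probe sets, Col6a3 (0.12), Fbln5 (0.013) and Bgn (0.10) without Stat3Δ/Δ pool 1, Bgn (0.0026) without Stat3Δ/Δ pool 3, Col6a3 (0.0058) and Fbln5 (0.040) without control pool 2, and Col4a1 (0.11) and Bgn (0.027) without control pool 3; the cause was not tested. With 1 pool left out in turn Col4a1 ran from -0.28 to 0.11, Col6a3 from -0.55 to 0.12, Fbln5 from -0.46 to 0.040 and Bgn from -0.24 to 0.10. With the replicate number of the titles as a block, 17 probe sets were called lower and 3 higher (3.32% and 3.29% of all probe sets). In that fit 10 genes were called lower (4.27% of all genes), 9 of them among the 10. Col6a2 lost its call (unadjusted p = 0.052, limma) and Fmod gained one. Same-numbered pools did not deviate together (correlations over probe sets of -0.084, -0.0088 and -0.24), so the numbers were not taken to pair the pools. An alternative without Col4a3bp, which encodes no matrix protein, was not run, since no member carries that symbol here.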
